A study of Mus musculus with 2 samples.

Results

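The clustered histone genes are the genes whose symbols begin with Hist1h, Hist2h, Hist3h or Hist4h, named after the gene clusters in which they lie. All 68 genes with such a symbol were kept, out of 24411 genes, and they took up 81 RefSeq transcript rows. They comprised 6 H1, 18 H2A, 19 H2B, 12 H3 and 13 H4 genes, of which 54 carried the Hist1 symbol, 10 the Hist2 symbol, 3 the Hist3 symbol and 1 the Hist4 symbol. The values were read in 2 RNA-seq libraries of enriched dorsal root ganglion (DRG) neurons from male C57BL/6J mice aged 6 to 8 weeks. One library came from mice given the adjuvant alum by intraperitoneal injection on days 0 and 14 (50% alum), and its label calls these mice both naïve and alum alone. The other came from mice given 100 µg of keyhole limpet haemocyanin (KLH), a foreign protein antigen, with the same alum in 200 µl of saline on the same days. DRGs of thoracic and lumbar levels were taken 14 days after the last injection, digested and spun through albumin, and B cells were removed with beads. Each library pooled 10 mice, so there was 1 library per group, no value has a replicate error, and no test of the immunization was made. The study asked whether sensory neurons hold the transcripts needed to make antibody.

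Histone proteins package DNA: H2A, H2B, H3 and H4 form the core of the nucleosome, and H1 binds the linker DNA between cores. Most clustered histone genes are replication-dependent, meaning that they are transcribed and processed mainly while DNA is copied in S phase, which adult sensory neurons do not enter. Their transcripts usually have no introns and end in a short stem-loop bound by SLBP, cut with the help of the U7 small nuclear RNA, in place of a poly(A) tail. The libraries were made with a kit that captures RNA by its poly(A) tail, so a transcript ending at the stem-loop is poorly captured even where it is made. Low synthesis and lost capture cannot be told apart in these libraries, because no total RNA library was analysed here.

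Annotated transcripts of 45 members held the stem-loop after the coding sequence. It is shown for the 6 members with a stem-loop that passed 3 TPM (transcripts in every 1000000) in a pool, because the results on stem-loop members turn on them. TPM is the share of a library assigned to a transcript, corrected for transcript length and scaled to a fixed total. Captured levels can thus be compared between genes, but TPM does not correct for poor capture. The sequences are from GENCODE M21 transcripts on GRCm38 in transcript orientation, with the 16 bases of the stem-loop in capitals. Hist1h2bg lay at chr13:23571838-23571863, Hist1h2ad at chr13:23574890-23574915, Hist1h1c at chr13:23739507-23739532 and Hist1h3d at chr13:23576239-23576264, all on the plus strand. Hist1h2be lay at chr13:23585526-23585551 on the minus strand, and Hist3h2a at chr11:58955167-58955192 on the plus strand. The capitals were the same in all 6.
Hist1h2bg: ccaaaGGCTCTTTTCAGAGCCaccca
Hist1h2ad: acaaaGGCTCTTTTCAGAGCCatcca
Hist1h1c: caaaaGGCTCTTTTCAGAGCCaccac
Hist1h2be: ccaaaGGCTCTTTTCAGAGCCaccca
Hist1h3d: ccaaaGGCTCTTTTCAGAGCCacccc
Hist3h2a: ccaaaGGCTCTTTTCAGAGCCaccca

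The same motif was rare among other genes. It was found on the transcript strand in at least 1 annotated transcript of 46 of 67 matched members (68.7%) and of 22 of 21810 other protein-coding genes (0.101%).

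A second set of sequences shows the hexamers AATAAA and ATTAAA, which direct cleavage and poly(A) addition, in 5 members above 3 TPM in a pool. In 4 of them it lay in the last 50 bases of the GENCODE transcript, and Hist1h2bc is added because its hexamer lay close to the RefSeq end. The hexamer is in capitals. The windows were chr13:23692452-23692477 on the plus strand for Hist1h2bc, chr3:96223707-96223732 on the plus strand for Hist2h2be, chr13:23740332-23740357 on the plus strand for Hist1h1c, chr13:23583674-23583699 on the minus strand for Hist1h2be and chr11:58956787-58956812 on the plus strand for Hist3h2a.
Hist1h2bc: atgtatatatAATAAAtgtcatgtaa
Hist2h2be: tattattattAATAAAgttaccgatt
Hist1h1c: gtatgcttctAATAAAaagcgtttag
Hist1h2be: tgtgttccttATTAAAgcattcctga
Hist3h2a: gtatatgcccAATAAAataagagtac

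Most clustered histone genes were near or at 0 in both pools. Above 3 TPM, the detection limit of the study, stood 7 of the 68 members in the alum pool (10.3%) and 9 in the alum + KLH pool (13.2%), against 46.9% and 46.3% of all genes in the same order. At least 1 pool passed the limit for 9 members and for 47.7% of all genes. The median member was at 0.217 TPM in the alum pool and 0.227 TPM in the alum + KLH pool, while the median over all genes was 2.15 and 2.00 TPM. Below 1 TPM were 54 and 53 members, and 26 and 23 were listed at 0. Of all genes, 77.1% were above 0 in the alum pool and 77.4% in the alum + KLH pool. Near 1 TPM, 56.5% of all genes stood above Hist1h3a (0.992 TPM) in the alum pool. In the alum + KLH pool 56.0% stood above Hist3h2ba (0.978 TPM). In these bulk libraries, fewer cells of a type and less RNA per cell cannot be told apart.

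The summed signal of the group was that of a single H2B gene. All members together reached 346.8 TPM in the alum pool and 332.3 TPM in the alum + KLH pool, which was 0.0347% and 0.0332% of each library. Hist1h2bc alone, a gene for core histone H2B, held 78.7% and 77.3% of these sums. Without it, the other 67 members summed to 73.9 and 75.4 TPM. The 6 highest members of each pool held 92.4% and 90.7% of the group's sum.

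**Figure D1:**
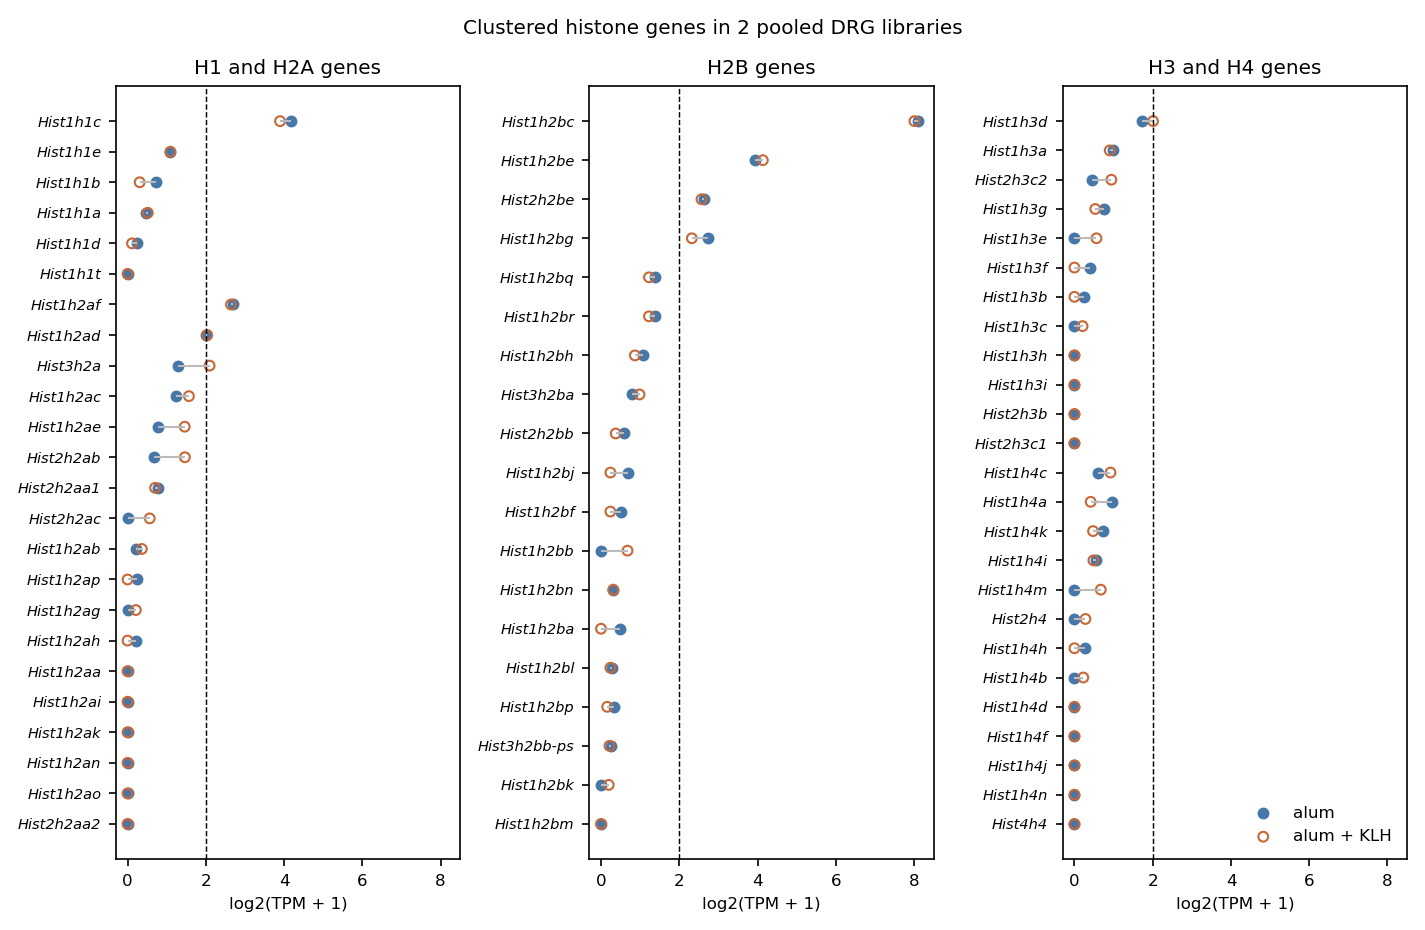
The log2(TPM + 1) of each of the 68 members on the horizontal axis, with 1 row per gene, a filled point for the alum pool, an open point for the alum + KLH pool and a dashed line at 3 TPM. Hist1h2bc stands alone near 8, Hist1h1c and Hist1h2be lie near 4, no H4 gene reaches the line, and 17 genes are at 0 in both pools.

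H2B was the most abundant type, with a sum of 306.0 TPM in the alum pool and 289.0 TPM in the alum + KLH pool over 19 genes, and 4 genes above 3 TPM in each pool. Hist1h2bc was at 272.9 TPM in the alum pool and 256.9 TPM in the alum + KLH pool. It ranked 758 and 812 of all 24411 genes and exceeded the next most abundant member 16.1-fold and 15.5-fold. The log2 ratio of the pools, alum + KLH over alum with 1 TPM added to each value, was -0.09 for this gene. The SD of that ratio over the 500 genes closest in mean level was 0.19, and this neighbour SD is the only spread these libraries offer. The pools thus differed by less than genes of similar level commonly did.

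Nearly all of the Hist1h2bc signal was on its RefSeq transcript NM_023422, at 272.9 and 256.5 TPM, while its other transcript row was listed at 0 and at 0.322 TPM. In GENCODE M21 the gene has 2 exons on the plus strand, at chr13:23684199-23684621 and chr13:23692176-23692908. They are 423 and 733 bases long and are separated by an intron of 7554 bases. No stem-loop was found in the 1156 bases of this transcript. Of its 31-base stretches, 34.5% also occurred in transcripts of other genes, 25.8% in Hist1h2br. The AATAAA shown above begins at position 23692462, and its last base lies 13 bases before the RefSeq end of the gene at 23692480. The GENCODE end at 23692908 is 441 bases past the hexamer.

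Hist1h2be, another H2B gene, was at 14.3 TPM in the alum pool and 16.6 TPM in the alum + KLH pool (log2 ratio 0.20, neighbour SD 0.25). Its transcript NM_178194 was at 9.00 and 14.03 TPM, its transcript NM_001177653 at 5.26 and 2.56 TPM, and its remaining row at 0 in both. These rows differed between the pools in opposite directions, and on the highest row alone the log2 ratio was 0.59. The annotated gene spans chr13:23583670-23621124 on the minus strand and overlaps the H1 gene Hist1h1e on that strand. Other genes shared 20.4% of the 31-base stretches of Hist1h2be.

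The other H2B genes above the limit were Hist1h2bg and Hist2h2be. Hist1h2bg was at 5.69 TPM in the alum pool and 3.999 TPM in the alum + KLH pool, a log2 ratio of -0.42 against a neighbour SD of 0.23. Of its 31-base stretches, 56.3% also occurred in transcripts of other genes, 46.8% in Hist1h2bc, so its reads could be split with a gene of far higher level. Hist2h2be was at 5.23 and 4.93 TPM (log2 ratio -0.07, neighbour SD 0.23), and only 2.82% of its stretches were shared. The remaining 15 H2B genes lay between 0 and 1.58 TPM. Hist1h2bq and Hist1h2br, whose annotated transcripts are almost wholly shared with each other (100% and 99.8% of stretches), had the same values of 1.58 and 1.34 TPM, and no split between them can be read.

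The H1 genes were mostly the signal of Hist1h1c, which encodes a linker histone. Hist1h1c was at 17.0 TPM in the alum pool and 13.9 TPM in the alum + KLH pool, out of H1 sums of 19.3 and 15.8 TPM. Its log2 ratio of -0.27 was just beyond the neighbour SD of 0.25, and 11.4% of its stretches were shared. The next H1 gene, Hist1h1e, was at 1.12 and 1.14 TPM. Hist1h1t, the linker histone of the male germ line, was listed at 0 in both pools.

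The 18 H2A genes summed to 13.9 TPM in the alum pool and 18.7 TPM in the alum + KLH pool, with 2 and 3 of them above 3 TPM. Hist1h2af was at 5.50 and 5.25 TPM (log2 ratio -0.06, neighbour SD 0.23). Its annotated transcript is little more than the coding sequence, and 94.3% of its stretches occurred in other genes, 85.9% in Hist1h2ad alone. Hist1h2ad was at 3.03 and 3.10 TPM (log2 ratio 0.02, neighbour SD 0.50), with 68.3% of stretches shared. How the signal divides between these core histone H2A genes is uncertain for that reason.

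Hist3h2a was the member whose pools lay farthest apart among the 9 above the limit. It was at 1.46 TPM in the alum pool and 3.28 TPM in the alum + KLH pool, a linear ratio of 2.24 and a log2 ratio of 0.80 on the scale with 1 TPM added, against a neighbour SD of 0.52. Of its stretches 32.1% were shared, all with Trim17, whose annotation at chr11:58954685-58973098 covers it on the same strand. Trim17 itself was at 0.980 and 1.31 TPM. The other 15 H2A genes lay between 0 and 1.96 TPM, led by Hist1h2ac at 1.38 and 1.96 TPM, and 6 were listed at 0 in both pools. Among the forms known from the testis, Hist1h2aa was listed at 0 in both pools, and its H2B neighbour Hist1h2ba was at 0.409 TPM in the alum pool and at 0 in the other.

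H3 and H4, the core histones that carry most of the known regulatory tail marks, were the least abundant types among the clustered genes. The 12 H3 genes summed to 4.83 TPM in the alum pool and 5.89 TPM in the alum + KLH pool. Hist1h3d was at 2.30 and 3.02 TPM (log2 ratio 0.29, neighbour SD 0.68), above the limit in the alum + KLH pool only and by a narrow margin. Hist1h3a was at 0.992 and 0.869 TPM. The 13 H4 genes summed to 2.77 and 2.997 TPM and none passed 3 TPM in either pool. All of them were below 1 TPM, among them Hist1h4a, at 0.948 TPM in the alum pool and 0.333 TPM in the alum + KLH pool, and Hist1h4c, at 0.505 and 0.894 TPM. Hist4h4, the single member of its cluster, was listed at 0 in both. Sums over the clustered genes alone thus ran from 2.77 TPM for H4 to 306.0 TPM for H2B in the alum pool.

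Members with an annotated transcript that ends close to the stem-loop stood low, and so did most of those that run farther past it. The classes of annotated ends below were formed after the values had been seen and are a description. In 22 members the transcript ended within 100 bases of the stem-loop, and these summed to 7.21 TPM in the alum pool and 7.99 TPM in the alum + KLH pool, with only Hist1h2ad above 3 TPM. In 23 members it ran farther past the stem-loop, and these summed to 48.5 and 50.8 TPM, with 3 and 5 above the limit. Of these 23, 15 were below 1 TPM in each pool. Their median was 0.505 and 0.823 TPM, against 0 and 0.164 TPM for the 22. Hist1h1c ran 840 bases past it, Hist1h2be 1861, Hist1h3d 752, Hist3h2a 1643 and Hist1h2bg 155, while Hist1h2ad ended 42 bases after it. Of the 6 members with a stem-loop that passed the limit, 5 were thus annotated with a longer 3′ end.

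The highest member, Hist1h2bc, had no stem-loop in its annotated transcript. The 4 spliced members with no stem-loop, which were Hist1h2bc, Hist1h2bq, Hist1h2br and Hist1h2bp, summed to 276.4 TPM in the alum pool and 259.7 TPM in the alum + KLH pool, nearly all of it Hist1h2bc. The 3 single-exon members without a stem-loop summed to 5.63 and 5.37 TPM, led by Hist2h2be with an annotated 3′ untranslated region of 2192 bases. For 15 members the annotation gave little beyond the coding sequence, with fewer than 20 bases after it, and these summed to 8.91 and 8.36 TPM, led by Hist1h2af. One member, the pseudogene Hist3h2bb-ps, had no matched transcript. Of the 67 matched members, 62 had a single exon and 5 were spliced. Either hexamer lay in the last 50 bases of 17 members, of which 4 passed 3 TPM in a pool, and was missing there in 50, of which 5 passed, Hist1h2bc among them because of its longer GENCODE end.

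**Figure D2:**
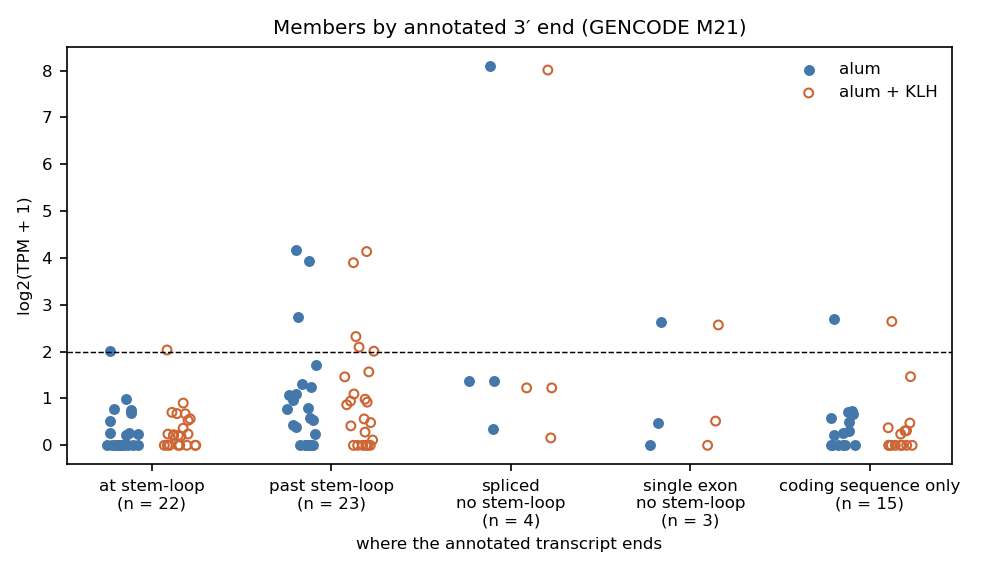
The log2(TPM + 1) of the 67 matched members by where the annotated transcript ends, with filled points for the alum pool, open points for the alum + KLH pool, a dashed line at 3 TPM and horizontal scatter for legibility. The 22 genes ending at the stem-loop have 1 point per pool at the line, the 23 ending past it reach about 4, and Hist1h2bc stands near 8 among the 4 spliced genes.

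Several H2A and H2B genes share a short stretch of DNA from which they are transcribed in opposite directions, and this arrangement allowed neighbours to be compared. The annotated starts of 13 such pairs lay 176 to 660 bases apart, and 12 of the pairs joined an H2A to an H2B gene. In no pair did both genes pass 3 TPM, in 4 pairs a single gene did, and in 9 neither did. Over the whole group, only 9 of the 68 members passed the limit in at least 1 pool. With so few members above it, the lack of a pair with both genes above the limit does not set divergent neighbours apart. The widest gap was that of Hist1h2ac and Hist1h2bc, whose starts are 251 bases apart. Hist1h2bc exceeded Hist1h2ac 197.9-fold in the alum pool and 130.7-fold in the alum + KLH pool. Hist1h2bg, at 5.69 and 3.999 TPM, faced Hist1h2ae at 0.717 and 1.75 TPM. Hist2h2be, at 5.23 and 4.93 TPM, faced Hist2h2ac, listed at 0 in the alum pool and at 0.480 TPM in the other. In the fourth pair the H2A gene was the higher, with Hist1h2ad at 3.03 and 3.10 TPM and Hist1h2bf at 0.424 and 0.181 TPM.

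**Figure D3:**
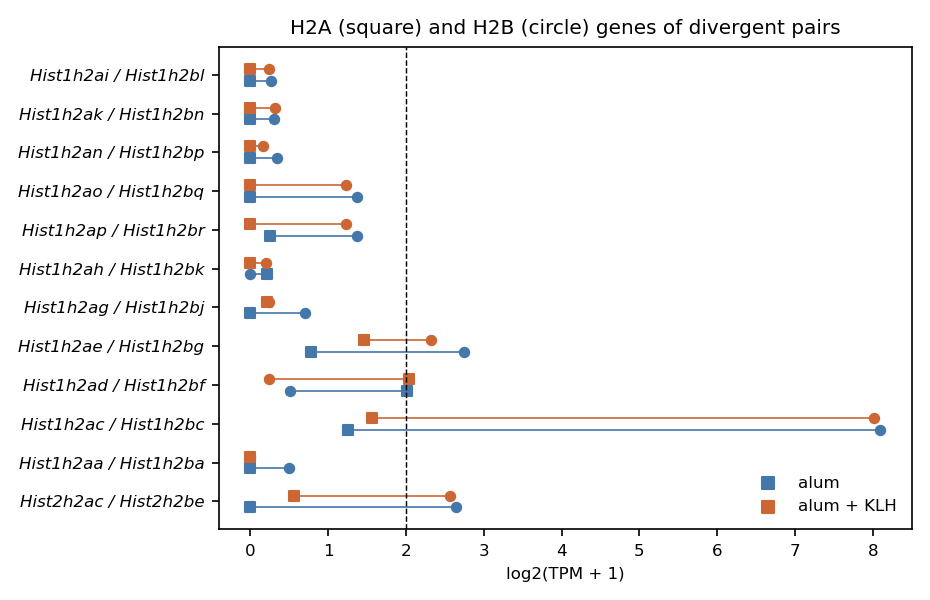
The log2(TPM + 1) of the H2A gene (square) and the H2B gene (circle) in each of the 12 divergent H2A and H2B pairs, joined by a line, in blue for the alum pool and orange for the alum + KLH pool, with a dashed line at 3 TPM. The longest line joins Hist1h2ac, below 2, to Hist1h2bc, near 8, and in every pair at least 1 gene lies left of the dashed line in each pool.

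The DNA between the starts is shown for the pairs of Hist1h2bc and Hist1h2bg, in both of which the H2B gene passed the limit and its partner did not, and the stretch before the start is shown for Hist1h1c, the highest H1 gene. Letters are from the RefSeq promoter table for GRCm38.p6, and capitals mark ATTTGCAT (the octamer bound by Oct factors), CCAAT (bound by the factor NF-Y) and TATAAA (the TATA box), each searched on both strands. The first is chr13:23683960-23684198 on the minus strand, ending just before the RefSeq start of Hist1h2ac, which lies upstream of its GENCODE start. The second is chr13:23571221-23571395 and the third chr13:23738557-23738806, both on the plus strand.
Between Hist1h2bc and Hist1h2ac: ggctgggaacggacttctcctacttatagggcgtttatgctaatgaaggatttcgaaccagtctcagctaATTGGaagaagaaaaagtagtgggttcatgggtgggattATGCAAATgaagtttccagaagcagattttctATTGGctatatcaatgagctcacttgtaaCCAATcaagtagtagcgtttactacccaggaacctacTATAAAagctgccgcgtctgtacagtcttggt
Between Hist1h2ae and Hist1h2bg: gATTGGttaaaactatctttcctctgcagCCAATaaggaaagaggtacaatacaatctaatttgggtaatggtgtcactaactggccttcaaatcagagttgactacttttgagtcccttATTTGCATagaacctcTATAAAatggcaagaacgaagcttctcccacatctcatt
Before Hist1h1c: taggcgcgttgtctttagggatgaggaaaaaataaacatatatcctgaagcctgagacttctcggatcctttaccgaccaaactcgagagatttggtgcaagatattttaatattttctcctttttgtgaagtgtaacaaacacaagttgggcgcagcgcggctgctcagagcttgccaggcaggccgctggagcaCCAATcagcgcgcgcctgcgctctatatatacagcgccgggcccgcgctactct

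The stretch of the Hist1h2bc pair held 1 octamer, 3 CCAAT and 1 TATAAA, that of the Hist1h2bg pair 1, 2 and 1, and that of Hist1h1c a single CCAAT. In the first stretch the TATAAA began at base 208 of 239 and read toward Hist1h2ac, the lower gene of the pair. In the second it began at base 137 of 175 and read toward Hist1h2bg, the higher gene. Promoters of 250 bases before to 50 after the start were found for 62 of the 68 members, 63 promoters in all. ATTTGCAT occurred in 14 of the 63 (22.2%), in 7 of 18 H2A, 7 of 17 H2B and none of the H1, H3 and H4 promoters, against 1.74% of all 32851 promoters. CCAAT occurred in 54 (85.7%), which included every H1, H2A, H2B and H3 promoter but 3 of 12 H4 promoters, against 37.4% of all. TATAAA occurred in 35 (55.6%), against 13.6%. Where both genes of a divergent H2A and H2B pair had a promoter, their windows could overlap, so the same stretch of DNA can be counted for each gene. The 63 promoters need not be separate stretches, and the shares of members were not corrected for this. A match is a description of the letters and not a shown binding site.

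Alum + KLH and alum differed little over the clustered histone genes. Of the 9 members above 3 TPM in at least 1 pool, with 1 TPM added to each value, 0 were higher in the alum + KLH pool by 2-fold or more and 0 were lower by as much. On the same scale, 0.695% of the 11648 genes above the limit were higher and 0.944% lower by that fold, or 1.64% in either direction. With no TPM added, Hist3h2a was 2.24-fold higher, and with 0.1 TPM added it was the 1 member past 2-fold. With so few members above the limit, a count of 0 does not set them apart from this background. The alum + KLH pool was higher for 4 of the 9 and lower for 5, and their median log2 ratio was -0.06, against -0.02 over all genes above the limit. Of the 4, Hist3h2a and Hist1h3d passed the limit in the alum + KLH pool only, so their direction was partly set by the limit. The other 7 members passed it in both pools. The ratio was larger than the neighbour SD for Hist3h2a, Hist1h1c and Hist1h2bg. The share of all genes with a ratio beyond their own neighbour SD is not given here, so these members are not set apart from other genes. Over all 68 members, 23 were higher in the alum + KLH pool, 28 lower and 17 listed at 0 in both. Among the 23 higher, 9 were at 0 in the alum pool, and among the 28 lower, 6 were at 0 in the alum + KLH pool. All of these were below the limit in the other pool.

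**Figure D4:**
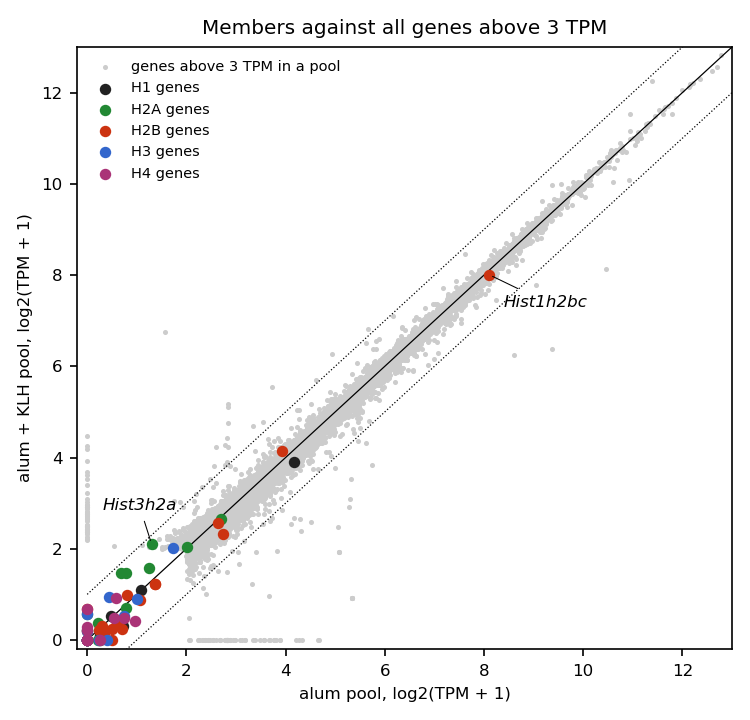
The log2(TPM + 1) of each gene in the alum pool (horizontal) and the alum + KLH pool (vertical), with the 11648 genes above 3 TPM in at least 1 pool in grey and all 68 members coloured by type. The solid line marks equal values and the dotted lines a 2-fold difference on this scale; every member lies between the dotted lines, and Hist3h2a, at a log2 ratio of 0.80, lies nearest to one of them among the 9 detected members.

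Most replication-independent histone genes supply histones outside S phase from ordinary polyadenylated transcripts. Of 18 genes listed under this name, 17 were in the files, and 9 passed 3 TPM in both pools. Of all genes, 46.9% passed in the alum pool and 46.3% in the alum + KLH pool. The transcript ends of the listed genes are not given here. H3f3b, a gene for the H3.3 variant, was at 559.1 TPM in the alum pool and 587.6 TPM in the alum + KLH pool, and H3f3a, for the same protein, at 350.7 and 354.2 TPM. H2afz, for the variant H2A.Z, was at 425.4 and 459.6 TPM, and H1f0, for the linker histone of non-dividing cells, at 68.7 and 66.5 TPM. All 4 were above each clustered member of their own type in both pools.

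By type, the listed independent genes outweighed the clustered ones for H1, H2A and H3. For H3 they summed to 910.5 TPM in the alum pool and 942.1 TPM in the alum + KLH pool, 188.5-fold and 159.8-fold the clustered sum. For H2A they summed to 491.0 and 517.8 TPM, 35.3-fold and 27.8-fold the clustered sum, and for H1 to 68.7 and 66.6 TPM, 3.56-fold and 4.21-fold. Of the captured signal, clustered genes thus held 0.528% and 0.622% for H3, 2.76% and 3.48% for H2A and 21.9% and 19.2% for H1. Transcripts that end at the stem-loop are poorly captured by their poly(A) tail. These folds and shares therefore describe the libraries and not the histone transcripts in the cells. The list held no independent gene for H2B or H4, whose sums rest on clustered genes alone.

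**Figure D5:**
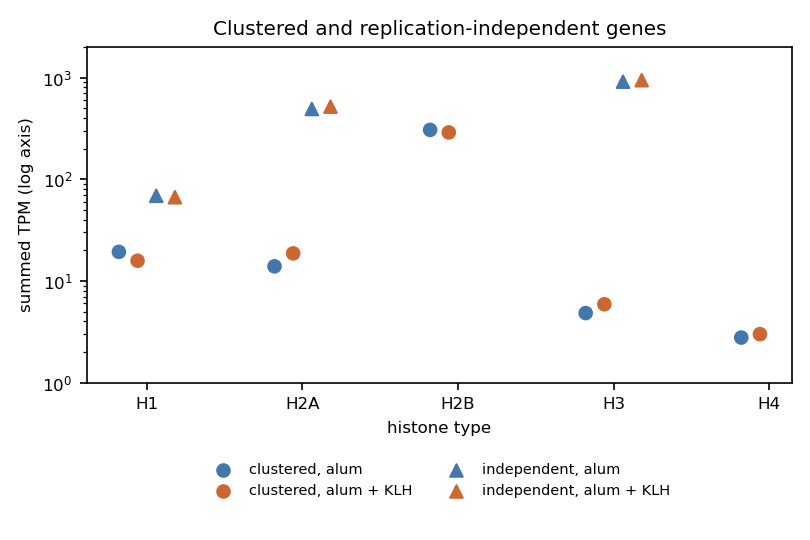
Summed TPM on a log axis for each histone type, with circles for the clustered genes and triangles for the listed replication-independent genes, in blue for the alum pool and orange for the alum + KLH pool. The triangles lie above the circles for H1, H2A and H3, and the H2B circles, at 306.0 and 289.0 TPM, are the only clustered sums above 100.

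The genes that process histone transcripts were present. The list held 25 symbols, some of them second names of the same gene (Srrt and Ars2, Zcchc6 and Tut7, Papd5 and Tent4b). Of these symbols, 21 were in the files and 16 passed 3 TPM in each pool, against 46.9% and 46.3% of all genes. Slbp, which binds the stem-loop, was at 82.7 TPM in the alum pool and 86.7 TPM in the alum + KLH pool. Npat, the coactivator of clustered histone genes in S phase, was at 15.5 and 15.3 TPM, and Ncbp2, a subunit of the cap-binding complex, at 112 and 114 TPM. The 2 Lsm proteins particular to the U7 particle differed in level, with Lsm11 at 9.81 and 9.30 TPM and Lsm10 at 2.33 and 2.10 TPM. Zfp473, which also joins that complex, was at 1.11 and 0.955 TPM, and the U7 RNA itself (Rnu7), which has no poly(A) tail, was listed at 0. Of 18 histone chaperones, 14 and 13 passed the limit, led by Nap1l1 at 959 and 1025 TPM.

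Genes of the dividing cell were mixed. Of 32 genes of S and G2/M phase, 15 passed 3 TPM in the alum pool and 14 in the alum + KLH pool. Of all genes, 46.9% and 46.3% passed, so these counts do not set the list apart. The median of the list was 1.72 and 1.32 TPM, against 2.15 and 2.00 TPM over all genes. Pcna, the sliding clamp of DNA polymerase that also serves DNA repair, was at 190.3 and 195.8 TPM. Mki67, a marker of cycling cells, was at 3.04 and 2.43 TPM, and Top2a, a topoisomerase of dividing cells, at 0.691 and 0.439 TPM. In none of these 4 lists was a gene above the limit at least 2-fold apart between the pools. Of all genes above the limit, 1.64% were. With so few listed genes above the limit, a count of 0 does not set the lists apart from this share.

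Markers of neurons, the labelled cells, were high, and those of glia were present as well. All 11 pan-neuronal genes passed 3 TPM in both pools, with summed levels of 17935 and 17664 TPM. Of 10 Schwann cell genes 6 and 7 passed (2197 and 2160 TPM), and of 6 satellite glia genes all did (1480 and 1365 TPM). Pmp22 (1062 and 1021 TPM) and S100b (683 and 711 TPM) led the Schwann cell sum. The Schwann cell genes Sox10, Prx and Mag were below 3 TPM in both pools. None of 7 macrophage genes passed (6.54 and 5.84 TPM). Of 8 endothelial and fibroblast genes, 2 did (78.3 and 74.2 TPM), and Dcn alone was at 63.8 and 62.6 TPM. None of 6 B and T lymphocyte genes passed (0.940 and 0.274 TPM, with Cd79b and Cd3g at 0). Of 5 red cell genes 1 and 0 did (5.35 and 1.95 TPM). The part of each cell type in the histone values was not tested. The methods give a minimum depth for both libraries, but TPM values hold no counts of assigned reads, so no limit was set for a gene listed at 0, and no order is read among members below 1 TPM.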

How the data were processed

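RNA-seq was analysed from 2 libraries of pooled, enriched DRG neurons (10 mice per pool), prepared with a stranded mRNA kit. According to the submitters' processing notes, bcl2fastq, cutadapt and kallisto were used with the mm10 build; versions are not given in the sources used here. The authors deposited TPM per RefSeq transcript, normalized for transcript length and summing to 1000000 in each library. The methods state at least 60 M reads of 75 base pairs per library; the reads assigned to each transcript were not used here.

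TPM was summed over the rows of each gene. Of the rows of the members, 9 carried a suffix for a second locus of the same RefSeq identifier and were included in the sums. Detection meant above 3 TPM, and the log2 ratio used a pseudocount of 1 TPM. As there was 1 library per group, no test was made, and the SD over the 500 genes nearest in mean log2(TPM + 1) stands beside each ratio. Transcript ends, exons and shared 31-base stretches came from GENCODE M21 (GRCm38, the assembly of mm10), matched to 67 of 68 members by RefSeq identifier, with promoters from RefSeq; protein sequences were not analysed here. Shared stretches had a median of 60.2% over the matched members, with 15 members above 90%; kallisto's division of reads among such copies is contained in the values. Named in full were the 2 most abundant members of each type and the 5 detected members with the largest absolute log2 ratio; other members above 3 TPM are named with their values, and pair partners and further members were named after their values were seen. The members and gene lists were chosen with earlier results of these data known. Alternatives were other detection limits (0, 1 and 10 TPM), pseudocounts of 0.1 and 0.5 TPM, the highest row per gene, scaling by the median pool ratio (0.987) or by Hprt, and leaving out the most abundant member. Calculations used Python 3.11.15, numpy 2.4.6 and pandas 2.3.3, plots matplotlib 3.10.9, and the steps were tested on simulated data.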

Additional observations from a re-analysis of the deposited data

How the results depend on the processing

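The count of detected members followed the limit chosen. Above 1, 10 and 0 TPM, 14, 3 and 42 members were counted in the alum pool in place of 7, and 15, 3 and 45 in the alum + KLH pool in place of 9. With a pseudocount of 0.1 TPM, 1 member (Hist3h2a) was at least 2-fold higher in the alum + KLH pool in place of 0, and none was 2-fold lower under any alternative. Without Hist1h2bc the members summed to 73.9 and 75.4 TPM. The median log2 ratio of the detected members stayed between -0.13 (relative to Hprt) and -0.02 (above 1 TPM), and among the ratios of the 9 detected members, which were the ratios recomputed, the sign changed only for Hist1h2ad, to -0.04 relative to Hprt. The ratio of Hist1h2be moved from 0.20 to 0.59 on its highest row. No paired analysis was possible because each group has a single library, and no library could be left out for the same reason. Without counts of assigned reads, the precision of values near 0 is unknown.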
